A study of Mus musculus with 3 samples.

Results

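The genes described here are 45 cell cycle and DNA replication genes, read in cultured mouse macrophages, out of 55536 mouse genes in the gene tables. They were chosen by name: 10 genes of G1 progression (D and E cyclins, their kinases and E2F factors), 15 of replication licensing and S phase, 16 of G2 and mitosis, and 4 inhibitors of the cycle. Each symbol was taken from the annotated transcript names and its gene was looked up in every sample, and all 45 were found.

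The data are polyA RNA-seq of whole-cell RNA from primary macrophages derived from C57BL/6J bone marrow, with 3 replicates that form a single group. All 3 samples received the same sequence: 100 ng/ml lipid A for 12 hours, a washout of 12 hours, and a second exposure to 100 ng/ml for 180 minutes. Lipid A, the lipid part of lipopolysaccharide from Gram-negative bacteria, is sensed by macrophages through TLR4; the structured treatment field of the labels names lipoprotein A, of type protein, in its place. The labels number the samples as biological replicates 1, 2 and 3, each with its own biosample record and with technical replicate number 1. Age and sex were not recorded, and all samples carry a single donor record, so whether they came from separate animals is not stated. No untreated cells were analysed here, so the values are levels within this condition and the spread between its replicates, not responses to lipid A.

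Cells commit to division in G1, when D cyclins with CDK4 or CDK6 and E cyclins with CDK2 phosphorylate the retinoblastoma protein and free E2F factors, which turn on genes of DNA replication. Origins are licensed when ORC, CDC6 and CDT1 load the MCM helicase, which is fired in S phase; the mitotic genes follow, largely through the CHR and CCAAT elements of their promoters that the MuvB complex, B-MYB, FOXM1 and NF-Y bind. CIP/KIP and INK4 proteins restrain the kinases. Macrophages from bone marrow divide in response to M-CSF, and activation through TLR4 is known to slow that growth, with Cdkn1a (p21) among the genes it induces.

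The promoters are shown first because replication and mitotic genes are known for different promoter elements. RefSeq promoters (build GRCm38.p6, 250 bases before to 50 bases after a gene's start) were found for 37 of the 45 genes; Ccnd1, Ccnd2, Ccne2, Gins2, Mcm4, Ccna2, Aurkb and Rb1 are named only. Where a gene had several promoters, the one nearest the start of its most abundant transcript was used. For Mcm7 and E2f1 the RefSeq start lies 539 and 294 bases downstream of that transcript's start. Their windows thus lie within the transcribed gene and not before it. Both are counted below, Mcm7 with E2F matches and E2f1 without a match. The windows of Ccnd3, Cdk6, Cdc6, Chek1, Cdkn1a and Cdkn2c lie at the start of their leading transcripts. These windows also fall within the annotated bounds of their genes, which begin further upstream. Stretches of 150 bases that end just before the RefSeq start, or for Cdc20 before an annotated GENCODE start 9 bases further upstream, are shown for replication genes with an E2F match (Cdc6, Mcm6), for mitotic genes with a CHR match (Cdk1, which also has an E2F match, Cdc20, Plk1 and Mki67), and for the inhibitor Cdkn1a, which had no match. Capitals mark matches on either strand to CCAAT, to an E2F word (TTTGGCGC, TTTCGCGC, TTTCCCGC or TTTGCCGC) or to a CHR word (TTTGAA or TTTAAA, the latter reading the same on both strands). In Mcm6 the first run of capitals holds 2 E2F matches on opposite strands that overlap. A CCAAT box nearer the RefSeq start of Cdc20 lies outside its stretch. The stretches, each 5′ to 3′ on the gene's strand, are Cdc6 at chr11:98908001-98908150 (plus strand), Mcm6 at chr1:128359706-128359855 (minus), Cdk1 at chr10:69352913-69353062 (minus), Cdc20 at chr4:118437353-118437502 (minus), Plk1 at chr7:122159285-122159434 (plus), Mki67 at chr7:135716380-135716529 (minus) and Cdkn1a at chr17:29093619-29093768 (plus).
Cdc6: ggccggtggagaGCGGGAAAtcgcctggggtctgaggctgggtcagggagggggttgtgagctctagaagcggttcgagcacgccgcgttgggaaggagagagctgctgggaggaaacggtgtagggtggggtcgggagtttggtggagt
Mcm6: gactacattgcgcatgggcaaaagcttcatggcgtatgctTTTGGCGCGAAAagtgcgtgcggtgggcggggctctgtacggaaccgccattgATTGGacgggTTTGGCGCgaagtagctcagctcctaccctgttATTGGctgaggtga
Cdk1: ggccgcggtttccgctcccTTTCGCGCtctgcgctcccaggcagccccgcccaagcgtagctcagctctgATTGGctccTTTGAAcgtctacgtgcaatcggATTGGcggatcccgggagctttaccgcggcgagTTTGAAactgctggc
Cdc20: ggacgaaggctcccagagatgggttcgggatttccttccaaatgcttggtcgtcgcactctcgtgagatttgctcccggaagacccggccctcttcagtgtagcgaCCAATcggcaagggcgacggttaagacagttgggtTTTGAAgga
Plk1: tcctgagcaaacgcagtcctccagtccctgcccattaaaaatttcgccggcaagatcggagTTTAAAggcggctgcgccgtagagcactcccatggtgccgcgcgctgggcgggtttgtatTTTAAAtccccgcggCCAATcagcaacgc
Mki67: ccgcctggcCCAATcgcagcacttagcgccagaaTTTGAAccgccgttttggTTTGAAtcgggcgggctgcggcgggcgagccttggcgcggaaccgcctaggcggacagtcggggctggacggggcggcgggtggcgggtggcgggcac
Cdkn1a: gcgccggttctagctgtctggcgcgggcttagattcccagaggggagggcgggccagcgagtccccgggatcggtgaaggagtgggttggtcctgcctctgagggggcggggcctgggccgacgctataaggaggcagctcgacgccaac

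A CHR word was found in 13 of 14 mitotic promoters (92.9%), in 4 of 13 licensing and S phase promoters (30.8%), in 1 of 7 G1 promoters and in 1 of 3 inhibitor promoters. Among all 32851 mouse promoters of the same length the share was 27.6%, so the mitotic promoters stood above it and the licensing and S phase promoters lay near it. Bub1, a spindle checkpoint kinase, was the mitotic gene without a match. A CHR word and a CCAAT box stood together in 12 of 14 mitotic promoters (85.7%) against 10.7% of all promoters. The E2F words showed the reverse order, with 6 of 13 licensing and S phase promoters (46.2%) and 1 of 14 mitotic promoters (7.14%, Cdk1). The G1 share was 2 of 7 (28.6%) and the inhibitor share 0 of 3, against 2.26% of all promoters. CCAAT alone was found in 61.5% of licensing and S phase promoters and 92.9% of mitotic ones, against 37.4% of all. For CCAAT the G1 share was 3 of 7 (42.9%) and the inhibitor share 2 of 3. These matches are letters in a window and not measured binding.

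**Figure D1:**
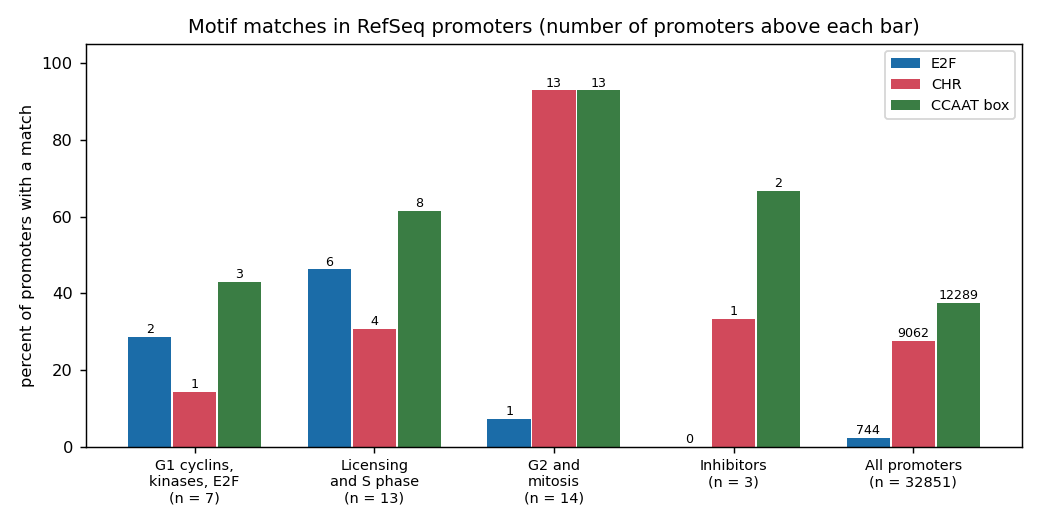
Percent of RefSeq promoters with at least 1 match to the E2F words, the CHR words or the CCAAT box (y axis), for the 4 gene groups and for all 32851 mouse promoters (x axis), with the number of promoters above each bar. CHR and CCAAT bars reach 92.9% in the mitotic group, and the E2F bar is highest in the licensing and S phase group at 46.2%.

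The mitotic genes were lower than the S phase genes in all 3 replicates, and the inhibitors differed from the G1 genes by less than the spread between replicates. Levels are given as TPM, a relative abundance scaled for library total and transcript length, in replicates 1, 2 and 3, and group levels as the median over genes of log2(TPM + 1). The G1 genes stood at 4.03 ± 0.39 (SD, n = 3) and the inhibitors at 4.09 ± 0.18. The licensing and S phase genes stood at 3.15 ± 0.28 and the mitotic genes at 1.03 ± 0.35, against 0.40 ± 0.03 for all protein-coding genes. The step from the S phase to the mitotic median was 2.13, 2.04 and 2.18 in the 3 replicates (2.12 ± 0.07). The G1 median exceeded that of S phase by 1.15, 0.15 and 1.35 (0.88 ± 0.64), so that replicate 2 showed little of this step. Inhibitors and G1 genes differed by 0.06, 0.26 and -0.16 (0.05 ± 0.21). With 3 replicates an exact two-sided sign-flip permutation test cannot go below p = 0.25, so these differences are given as values without a call. In whole cultures, fewer cycling cells and less RNA per cycling cell cannot be told apart.

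In all, 29 of the 45 genes (64.4%) were at 1 TPM or more in every sample, beside 44.3% of all 22028 protein-coding genes. The 29 were 8 of 10 G1 genes, 12 of 15 licensing and S phase genes, 5 of 16 mitotic genes and 4 of 4 inhibitors. Of the mitotic genes, 5 were below 1 TPM in all samples. The order of single genes ran from Cdkn1a, higher than 98.4% of protein-coding genes, through Pcna (97.1%) and Cdk4 (88.9%) down to Plk1 (48.7%).

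**Figure D2:**
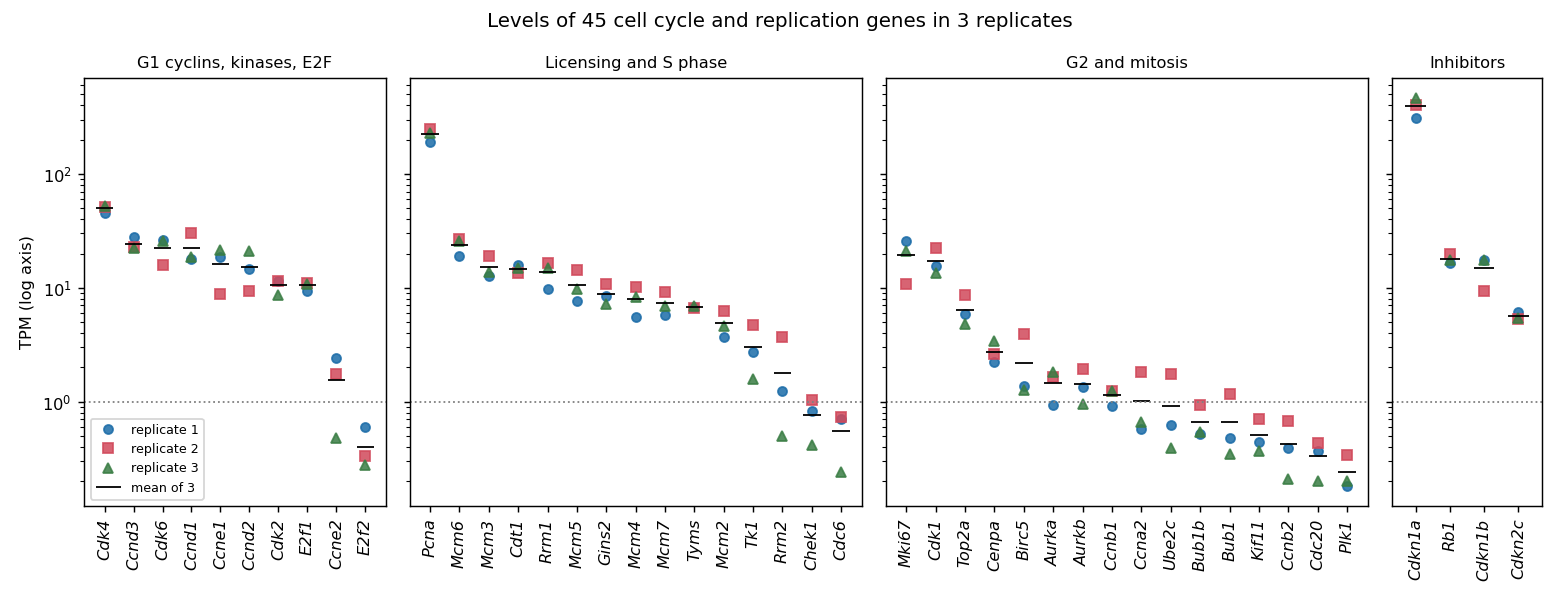
TPM on a log axis (y) for each of the 45 genes (x), in 4 panels by role and ordered by mean; circles, squares and triangles are replicates 1, 2 and 3, black bars the mean of 3, and the dotted line 1 TPM. Most mitotic genes lie near or below 1 TPM, while Mki67 and Cdk1 stand above 10 TPM on average, and Pcna and Cdkn1a stand apart at the top of their groups.

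Among the G1 genes, all 3 D cyclins, which bind CDK4 and CDK6, were present. Ccnd3 was 28.2, 23.0 and 22.4 TPM in replicates 1, 2 and 3 (mean 24.5 ± 3.18). For Ccnd1 the levels were 17.8, 30.4 and 18.5 TPM (22.2 ± 7.05). Ccnd2 gave 14.7, 9.46 and 21.2 TPM (15.1 ± 5.89). Ccnd1 was thus highest and Ccnd2 lowest in replicate 2, and their log2 ratio changed sign between replicates (0.28, 1.68 and -0.19, mean 0.59 ± 0.98). The partner kinase Cdk4 was the steadiest of the group's abundant genes at 45.3, 51.7 and 52.5 TPM (49.8 ± 3.95). Its relative Cdk6 was 26.1, 15.8 and 25.8 TPM (22.6 ± 5.85), lowest in replicate 2. Cdk4 exceeded Cdk6 in all 3 replicates, by a log2 TPM ratio of 1.18 ± 0.47. This order holds only per length: Cdk6 has the longer messenger (11525 bases for its leading transcript against 2053 for Cdk4), and its expected read counts exceeded those of Cdk4 (log2 count ratio -1.24).

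The E cyclins, which activate CDK2 at the entry to S phase, differed in level. Ccne1 was 18.8, 8.83 and 21.3 TPM (16.3 ± 6.58), again lowest in replicate 2. Ccne2 was 2.44, 1.75 and 0.48 TPM, lowest in replicate 3. Their kinase Cdk2 stood at 11.4, 11.4 and 8.67 TPM (10.5 ± 1.57), lowest in replicate 3. E2f1, an activator of replication genes, was 9.42, 11.1 and 10.8 TPM (10.5 ± 0.92), whereas the related E2f2 was 0.60, 0.33 and 0.28 TPM, below 1 TPM in every sample.

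The licensing and S phase group was led by Pcna, the sliding clamp of the replicative polymerases, at 191, 249 and 230 TPM. The 6 subunits of the MCM helicase were lower and unequal. Mcm6 was the highest of them at 19.2, 27.1 and 25.8 TPM. Mcm3 was 12.7, 18.9 and 13.8 TPM (15.1 ± 3.31) and Mcm5 7.73, 14.2 and 9.68 TPM (10.5 ± 3.30). Mcm4 was 5.58, 10.1 and 8.30 TPM and Mcm7 5.82, 9.25 and 6.98 TPM. Mcm2 was the lowest at 3.71, 6.20 and 4.66 TPM (4.86 ± 1.26). Each of the 6 was lowest in replicate 1 and highest in replicate 2 in these values. In a second quantification, made from the reads without the alignment, Mcm6 was highest in replicate 3 (13.0, 23.2 and 24.6 TPM). The other subunits kept their order there. Pcna exceeded Mcm2 by a log2 TPM ratio of 5.55 ± 0.19, a ratio that held steady across replicates.

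The loading factors split. Cdt1, which brings the MCM ring to origins, was 15.8, 13.4 and 14.9 TPM (14.7 ± 1.18). Cdc6, its partner in loading, was 0.70, 0.73 and 0.24 TPM, below 1 TPM in all samples and lowest in replicate 3. Gins2, a subunit of the active helicase, was 8.54, 10.8 and 7.19 TPM. Cdt1 was the only gene of this group that was not highest in replicate 2 on the log2 CPM scale used further on. Chek1, the kinase of the replication checkpoint, was 0.83, 1.03 and 0.42 TPM.

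The enzymes of nucleotide supply also split. Rrm1, the large subunit of ribonucleotide reductase, was 9.78, 16.4 and 14.9 TPM (13.7 ± 3.47). Rrm2, the small subunit whose messenger is restricted to cycling cells, was 1.23, 3.67 and 0.50 TPM (1.80 ± 1.66). The log2 ratio of Rrm1 to Rrm2 was 2.99, 2.16 and 4.90, so Rrm1 was higher in every replicate by a margin that varied. Tk1, the thymidine kinase of S phase, was 2.71, 4.75 and 1.58 TPM. Tyms, thymidylate synthase, was 6.74, 6.71 and 6.87 TPM, in these values the narrowest spread of the 45 genes relative to its mean. In the second quantification Tyms was 4.28, 5.05 and 6.42 TPM. Little of its level came from protein-coding transcripts, as described further on.

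Among the mitotic genes, 3 stood well above the rest. Mki67, which encodes the Ki-67 protein of mitotic chromosomes, was 26.0, 10.9 and 21.1 TPM. Cdk1, the kinase that drives mitosis, was 15.7, 22.5 and 13.5 TPM (17.3 ± 4.70). Top2a, the topoisomerase that untangles sister chromatids, was 5.91, 8.60 and 4.80 TPM (6.44 ± 1.95). Mki67 was lowest in the replicate in which Cdk1 and Top2a were highest: its log2 ratio to Top2a was 2.14, 0.34 and 2.14, a pair chosen after the values were seen.

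The cyclins that activate CDK1 were far lower than their kinase in TPM. The margin was narrower in counts scaled to the library total and not for length (CPM). On that scale Cdk1 was at 6.29, 10.3 and 6.10, and Ccna2 at 1.06, 3.45 and 1.23. Ccna2 was 0.57, 1.83 and 0.66 TPM, highest in replicate 2. Ccnb1 was 0.92, 1.24 and 1.25 TPM (1.14 ± 0.19), and Ccnb2 was 0.39, 0.68 and 0.21 TPM. Ccnb1 exceeded Ccnb2 in each replicate (log2 TPM ratio 1.24, 0.87 and 2.57). The regulators of the anaphase-promoting complex were low as well: its activator Cdc20 was 0.37, 0.43 and 0.20 TPM, and its ubiquitin-conjugating enzyme Ube2c was 0.62, 1.74 and 0.39 TPM.

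The mitotic kinases were near 1 TPM or below. Aurka, of the centrosome and spindle poles, was 0.94, 1.66 and 1.81 TPM. Aurkb, the kinase of the chromosomal passenger complex, was 1.35, 1.94 and 0.96 TPM. Plk1, needed for mitotic entry and spindle assembly, was the lowest of all 45 genes at 0.18, 0.34 and 0.20 TPM, from 5, 17 and 10 expected counts. In CPM (counts scaled to the library total, not for length) these are 0.214 (95% exact binomial interval 0.0694 to 0.499), 0.462 (0.269 to 0.739) and 0.265 (0.127 to 0.488). The intervals overlap and cover counting error only. The spindle checkpoint genes Bub1 (0.48, 1.16 and 0.35 TPM) and Bub1b (0.52, 0.94 and 0.54 TPM) were alike in level and both highest in replicate 2. The spindle motor Kif11 was 0.44, 0.71 and 0.37 TPM. Birc5 (survivin), the passenger complex partner of Aurkb, was 1.38, 3.92 and 1.27 TPM, and Cenpa, the centromeric histone, was 2.25, 2.62 and 3.39 TPM.

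The inhibitors were dominated by Cdkn1a (p21), a CIP/KIP inhibitor of cyclin-CDK complexes and a p53 target, at 311, 405 and 466 TPM (394 ± 77.8), the highest of the 45 genes in each sample. The related Cdkn1b (p27) was 17.5, 9.32 and 17.6 TPM (14.8 ± 4.74), lowest in replicate 2. Cdkn1a exceeded Cdkn1b by a log2 TPM ratio of 4.16, 5.44 and 4.73 (4.78 ± 0.64), the widest margin falling in the replicate with least Cdkn1b. Cdkn2c (p18), an INK4 inhibitor of CDK4 and CDK6, was 6.09, 5.30 and 5.45 TPM (5.61 ± 0.42). Rb1, the retinoblastoma protein that holds E2F, was 16.5, 19.9 and 17.6 TPM (18.0 ± 1.73), close across replicates.

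The replicates were then compared with each other. An intercept-only edgeR quasi-likelihood fit asked which genes varied more between the 3 samples than the trend for genes of their level, with a one-sided F test and Benjamini-Hochberg adjustment over all 11992 genes that passed the count filter. Of the members, 41 passed; Ccnb2, Cdc20, Plk1 and Ube2c, all mitotic, did not. No member was called at an adjusted p under 0.05, and no gene was (0% of those tested). In that edgeR test, an unadjusted value under 0.05 was found for 627 genes (5.23%), among them 6 of the 41 members. Without replicate 1 that count was 12 of 41 members, beside 668 of 12153 genes. It was 2 of 41 without replicate 2 (671 of 12005 genes) and 10 of 43 without replicate 3 (667 of 12090). The 6 were Rrm2 (edgeR adjusted p = 0.825), Mki67 (adjusted p = 0.827), Ccnd2 (adjusted p = 0.839), Ccne1 (adjusted p = 0.853), Cdkn1b (adjusted p = 0.912) and Ccnd1 (adjusted p = 0.942), none of which passed after adjustment. The differences between replicates described next are therefore values without a call.

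Replicate 2 had the highest levels of most replication and mitosis genes. On the scale of log2 CPM, less each gene's mean over the 3 samples, the median departure of the 15 licensing and S phase genes was -0.20, 0.34 and -0.04 in replicates 1, 2 and 3. For the 12 mitotic genes that passed the filter it was -0.28, 0.50 and -0.24. Over all genes tested the medians were 0.00, 0.01 and 0.00. Replicate 2 was the highest sample for 14 of 15 licensing and S phase genes and for 8 of 12 mitotic genes, beside 32.4% of all genes tested. With no filter on counts, 12 of 16 mitotic genes were highest there, beside 6627 of all 20285 genes. Replicate 1 was the lowest sample for 9 of 15 and 6 of 12, beside 35.6% of all genes, and replicate 3 was the lowest for 5 and 5, beside 32.6%. Between replicates 1 and 3 alone the mitotic median was 0.00 in each, so that its departure rests on replicate 2.

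The largest departures in replicate 2 belonged to genes of low count: Rrm2 (1.46), Cdc6 (1.06), Birc5 (1.03), Ccna2 (1.01), Bub1 (0.84) and Tk1 (0.76). Genes of higher count in the same groups departed less, with 0.14 for Pcna, 0.17 for Mcm6, 0.45 for Mcm5 and 0.47 for Top2a. The exceptions went the other way. Mki67 departed by -0.74 in replicate 2 and was lowest there, as were Ccne1 (-0.71), Ccnd2 (-0.70), Cdkn1b (-0.62) and Cdk6 (-0.31). Cdt1 (-0.15), Cdkn2c (-0.08) and Cdk4 (-0.05) were also lowest there, by less. Of the G1 genes 4 of 10 were lowest in replicate 2, as were 2 of 4 inhibitors. It was lowest for 1 of 15 licensing and S phase genes and 1 of 12 mitotic genes, beside 31.8% of all genes tested.

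The G1 genes and inhibitors had no common direction. Their median departures were 0.15, -0.01 and -0.09 for G1 and -0.04, -0.02 and 0.12 for inhibitors. Replicate 1 was the highest for 4 of 10 G1 genes, beside 35.9% of all genes, replicate 2 for 2, and replicate 3 for 4, beside 31.7%. Cdkn1a departed by -0.31, 0.03 and 0.27 and was highest in replicate 3.

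**Figure D3:**
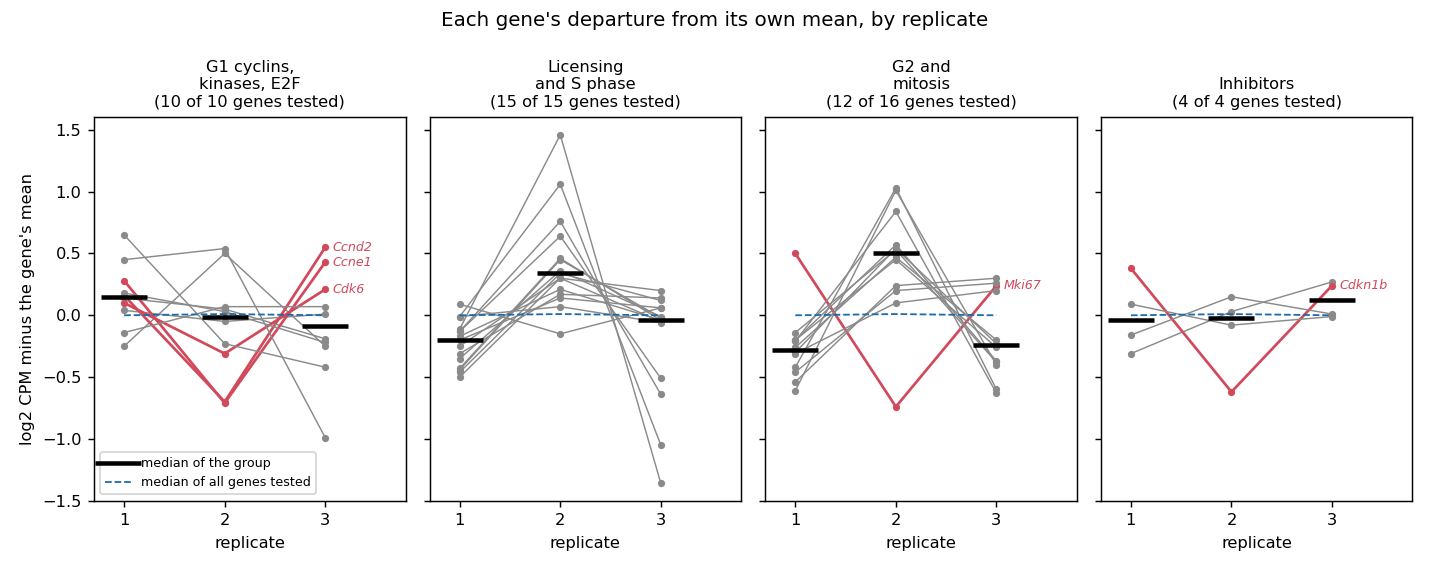
Departure of each tested gene from its own mean in log2 CPM (y axis) in replicates 1, 2 and 3 (x axis), by group. Grey lines are genes, and red lines are Mki67, Ccne1, Ccnd2, Cdkn1b and Cdk6, which were lowest in replicate 2. Black bars are the group median and the dashed line the median of all genes tested. The replication and mitosis medians peak in replicate 2 at 0.34 and 0.50, while Mki67 lies at -0.74 there.

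Of the 5 wider pathway lists, those of replication and mitosis were also highest in replicate 2 for most genes. Of 41 other replication genes, 25 were highest there (median departures -0.16, 0.18 and -0.06), as were 27 of the 36 other mitosis genes that passed the filter (-0.15, 0.37 and -0.18), beside the 32.4% of all genes. The remaining lists did not share this: replicate 2 was highest for 5 of 15 E2F, pocket protein and MuvB genes (median departure 0.02), 6 of 15 p53 target and checkpoint genes (0.03) and 0 of 3 other CDK inhibitors (-0.57). Markers of neutrophils were highest in replicate 2 as well. The 10 neutrophil markers summed to 17.6, 115 and 14.7 TPM, with S100a9 at 4.20, 58.0 and 5.10 TPM and S100a8 at 6.84, 39.4 and 5.36 TPM, while Ly6g and Retnlg were listed at 0 in all samples. All 4 neutrophil markers that passed the filter were highest in replicate 2, as were 6 of 10 macrophage markers. Both B cell markers that passed and the single T and NK and erythroid or megakaryocyte markers that passed were also highest there, as was 1 of 2 progenitor markers that passed, while the fibroblast marker that passed was not. Their part in the result was not tested.

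The markers of macrophages, the labelled cell type, were abundant, with 10 of 10 at 1 TPM or more (Lyz2 at 10782 ± 581 TPM and Cd68 at 2292 ± 109 TPM). Markers of haematopoietic progenitors, which divide rapidly, were low: besides Cd48 (255 ± 56.6 TPM), which many mature leukocytes express, all 9 others were below 1 TPM in every sample, with Kit the highest of these at 0.76, 0.71 and 0.74 TPM. Of the 8 erythroid and megakaryocyte markers, Pf4 (208 ± 84.4 TPM) alone passed 1 TPM in every sample, with Itga2b next at 0.44 TPM on average and 3 listed at 0 throughout. In the B cell list Cd79b led (2.63 ± 1.43 TPM) before Ighm (0.98 TPM), and in the T and NK list Cd4 (36.7 ± 14.7 TPM) before Lck (0.44 TPM). Fibroblast markers reached 1.37 ± 0.64 TPM for Pdgfrb and 0.29 TPM for Dcn. Replicates 1, 2 and 3 summed to 23418690, 36863611 and 37728915 expected counts, so replicate 1 was the shallowest, and a count of 0 there allows up to 0.128 CPM (3 counts).

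Genes outside the 45 filled in the same machinery. The 41 other replication genes had a median of 2.88 ± 0.15 on the log2(TPM + 1) scale, near that of the licensing and S phase members, and 36 were at 1 TPM or more throughout. Highest were Rfc2, a clamp loader subunit (59.6 ± 4.51 TPM), Pold4, a small subunit of polymerase delta (33.8 ± 5.12 TPM), and Orc4, of the origin recognition complex (32.9 ± 2.57 TPM). Lowest were Pole2 (0.91 ± 0.28 TPM) and Orc1 (0.58 ± 0.09 TPM). From protein-coding transcripts alone Rfc2 was at 9.59 TPM and Orc4 at 11.3 TPM, while Pold4 was at 33.8 TPM, so the order of the highest genes depends on which transcripts are counted.

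The 45 other mitosis genes had a median of 1.21 ± 0.24, near that of the mitotic members, and 22 passed 1 TPM. Pttg1 (securin, 140 ± 6.03 TPM), Bub3 (33.4 ± 2.41 TPM) and Mad2l1 (25.8 ± 4.24 TPM) led the list, whereas the centromere protein gene Cenpf (0.05 TPM) and the spindle pole gene Aspm (0.03 TPM) were lowest. Of these levels, protein-coding transcripts gave 139 TPM in Pttg1 and 32.1 TPM in Bub3, but 14.1 TPM in Mad2l1.

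Of the 16 E2F, pocket protein and MuvB genes, 14 passed 1 TPM (median 3.20 ± 0.25). Rbbp4, a chromatin protein that is also a MuvB subunit, was highest at 42.6 ± 4.30 TPM. Next came E2f4, the repressor E2F of resting cells (30.5 ± 2.80 TPM), and Lin37, a MuvB subunit (29.0 ± 1.45 TPM). The lowest were Tfdp2 (1.15 ± 0.32 TPM) and the repressor E2f7 (0.12 ± 0.05 TPM). E2f7 depended on the quantification: in the second it was 1.51, 1.82 and 0.74 TPM, above Tfdp2 on average (1.36 against 1.03 TPM). Lin37 was at 19.4 TPM from protein-coding transcripts alone. The 4 other CDK inhibitors had a median of 1.66 ± 0.53. Cdkn2d (p19) was 15.9, 10.8 and 10.3 TPM and Cdkn1c (p57) 4.20, 1.93 and 10.4 TPM, while Cdkn2b (p15, 1.28, 0.52 and 0.69 TPM) and Cdkn2a (p16 and p19ARF, 0.11, 0.27 and 0.13 TPM) were near or below 1 TPM.

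All 15 p53 target and checkpoint genes outside the 45 were at 1 TPM or more (median 3.69 ± 0.50). Gadd45b, a stress gene that NF-kB also induces, led at 467 ± 32.0 TPM, before the apoptosis gene Bax (122 ± 8.71 TPM) and Ccng1 (84.4 ± 9.29 TPM). The lowest were Phlda3 (3.83 ± 0.32 TPM) and the checkpoint kinase Atr (2.41 ± 0.33 TPM).

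**Figure D4:**
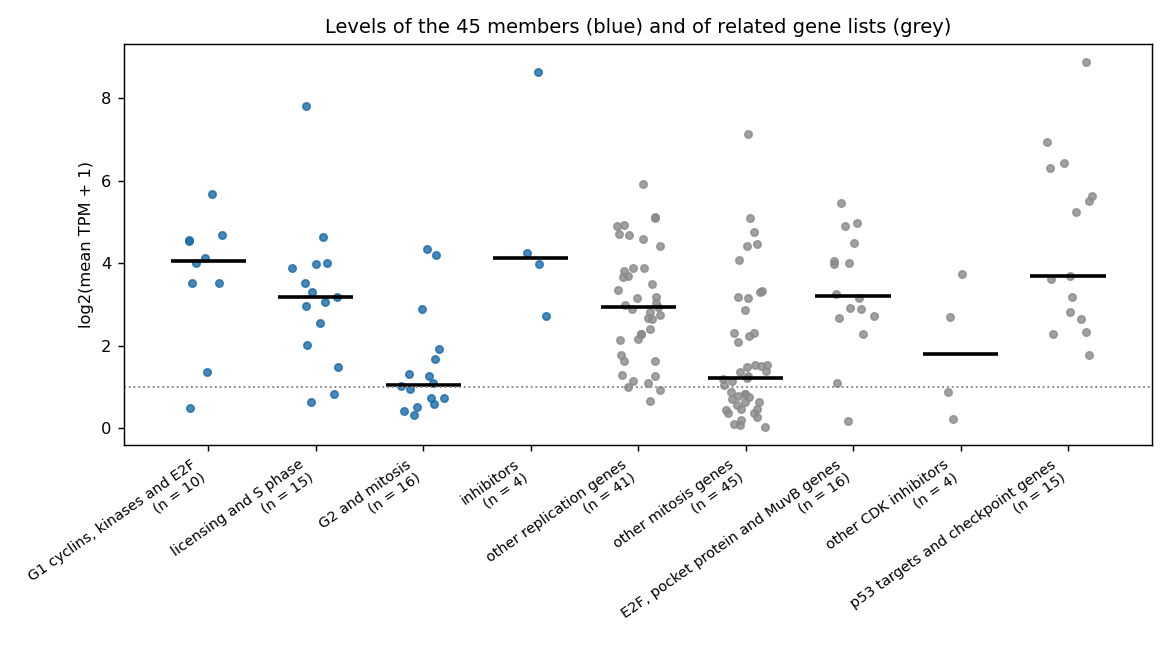
Level of each gene as log2(mean TPM + 1) over the 3 replicates (y axis) by list (x axis); points are genes, spread sideways for legibility, blue for the 45 members and grey for related genes, black bars are list medians of these gene means, and the dotted line is 1 TPM. Both mitosis lists have medians close to the dotted line, while the replication lists lie near 3.

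The transcript tables show which annotated transcripts carry these levels. Of the 29 genes at 1 TPM or more in every sample, 18 drew at least 90% of their TPM from protein-coding transcripts. Counts by transcript class were made for the members only, so whether they differ from those of other genes is not known. The 5 highest members each had a protein-coding leading transcript. It held 98.1, 98.5 and 98.7% of TPM in Cdkn1a (Cdkn1a-201) and 98.8, 98.3 and 99.5% in Pcna (Pcna-201). For Cdk4 (Cdk4-201) the share was 85.5, 66.7 and 71.1%, for Ccnd3 (Ccnd3-205) 73.9, 91.3 and 78.2%, and for Mcm6 (Mcm6-201) 96.1, 96.2 and 97.2%. Pcna and Cdkn1a thus rested on a single transcript each, while Cdk4 and Ccnd3 used several.

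In the quantification from the alignment, less than 60% came from protein-coding transcripts in 3 genes, and in Tyms and Cenpa the leading transcript was not coding. In Tyms, Tyms-205, annotated as a target of nonsense-mediated decay, held 40.7, 55.4 and 49.4%, and the retained-intron transcript Tyms-202 held 28.1, 10.9 and 24.1%. Protein-coding transcripts gave Tyms 1.40, 1.77 and 1.07 TPM, of 6.74, 6.71 and 6.87 TPM in all. In Cenpa, Cenpa-202, of the same decay class, held 78.7, 58.4 and 51.9%, which left 0.48, 1.01 and 1.60 TPM to coding transcripts. In Cdk1, the coding Cdk1-202 (46.0, 50.2 and 52.7%) and Cdk1-204 (53.7, 45.2 and 46.2%), a retained-intron transcript of 475 bases, were nearly equal, and coding transcripts gave 7.28, 12.3 and 7.27 TPM. The second quantification, made from the reads without the genome alignment, had the same leading transcript in all 29 genes. Mcm3 differed between the quantifications in another way: its protein-coding share was 65.3 ± 4.64% in the first and 94.1% in the second, and its level was 15.1 TPM in the first and 9.17 TPM in the second. The mean protein-coding share of Tk1 was 64.8 ± 18.9% in the first and 52.1 ± 11.9% in the second, below 60% there. Shares of short transcripts rest on the authors' TPM estimates from few reads (Tyms had 83, 144 and 130 expected counts for the whole gene).

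**Figure D5:**
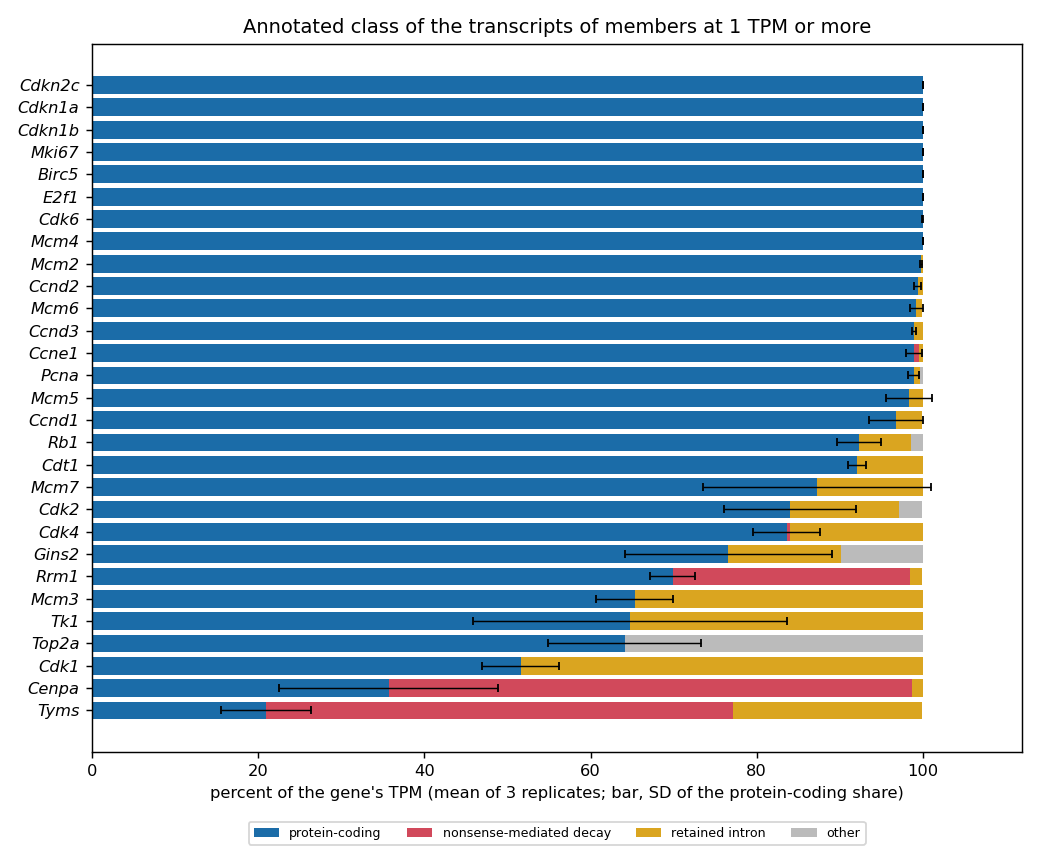
Percent of each gene's TPM (x axis, mean of 3 replicates) held by protein-coding, nonsense-mediated decay, retained-intron and other transcripts, for the 29 genes at 1 TPM or more in every sample (y axis); error bars are the SD of the protein-coding share. Tyms, Cenpa and Cdk1 at the bottom have protein-coding shares below 60%.

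Some values could be shared with other loci. In 6 members at least 10% of the 31-base words of their transcripts also occur in another gene, such as a pseudogene copy: Ccnb1 (27.7%), Mcm7 (26.8%), Cdc20 (25.5%), Pcna (23.3%), Plk1 (14.8%) and Rrm2 (12.0%). The partner of Pcna, Pcna-ps2, was at 2.55 TPM on average, far below Pcna, but the partner of Plk1, Plk-ps1, was at 0.34 TPM beside 0.24 TPM for Plk1, so the level of Plk1 is uncertain. Further, 19 members overlap a gene on the opposite strand, among them Ccnd1, Cdk4, Cdc20 and Rb1, and 6 overlap one on the same strand. Whether the counting used strand is not given in the sources used here. Shared words and overlaps were not counted over all genes, so these numbers are limits on single values and not a trait of the members.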

How the data were processed

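The authors deposited, per the file headers, gene and transcript tables with expected counts and TPM from an alignment, and transcript tables with estimated counts and TPM made from the reads directly. The build named in the labels is mm10, with aligner and quantifier not given in the sources used here. Transcript shares in percent and log2 values were computed here from the deposited TPM. Starting RNA was 1 µg. Of 81881 table entries, 55536 matched GENCODE M21, whose annotation gave gene positions; PhiX entries (0.107 to 0.178% of counts) and others were left out. The text names all 45 members, the 3 highest and 2 lowest genes of each pathway list and the 2 highest cell type markers of each list. Members and lists were chosen with earlier results of these data known. Rounded expected counts were tested in edgeR 4.0.16 (R 4.3.3, filterByExpr, TMM, intercept-only quasi-likelihood fit, Benjamini-Hochberg threshold 0.05). The test was also run on simulated data, with the outcome not given here, so its power is not stated. P-values measure only the spread between these samples, numbered in the labels as biological replicates. Alternatives were another pseudocount, TPM threshold, quantification, scaling with DESeq2 1.42.0, no filter, and each replicate left out. No sample was dropped.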

Additional observations from a re-analysis of the deposited data

How the results depend on the processing

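The S phase median stayed above the mitotic one under each alternative run, but the step of 2.12 moved by more than its SD: it was 2.84 with a pseudocount of 0.1, 1.90 with the second quantification, 2.75 in CPM not scaled for length, 1.77 over members with a mean of at least 1 TPM, and 2.04 from protein-coding transcripts only, an alternative chosen after seeing the data. Without each replicate in turn it ranged from 2.09 to 2.16. The G1 step over S phase ranged from 0.54 to 0.99 under the other settings and from 0.65 to 1.25 without each replicate, highest without replicate 2. The difference of inhibitors and G1 genes was 0.53 in CPM; its sign was not stable (-0.05 without replicate 2). In expected counts not scaled for length the log2 ratio of Cdk4 to Cdk6 reversed to -1.24, and that of Pcna to Mcm2 was 4.22; for Cdk4 and Cdk6 the lengths of the transcripts differ, as given above. Without replicate 2 the log2 ratio of Ccnd1 to Ccnd2 was 0.04. No member passed the adjusted threshold of the edgeR test under any alternative, although without the count filter 143 genes did. The count of members with an unadjusted value under 0.05 was less stable. With library totals alone it was 9 of 41 in place of 6, beside 613 of 11992 genes. With no filter it was 14 of 45, beside 1266 of 20285 genes. It was 12 of 41 without replicate 1 (668 of 12153 genes) and 2 of 41 without replicate 2 (671 of 12005). Without replicate 3 it was 10 of 43 (667 of 12090). With the second quantification 42 of 45 members were lower, 9 by more than their SD, and the median log2 shift over all genes compared was -0.48, -0.18 and -0.03 in replicates 1, 2 and 3. Depth limits the mitotic genes most: Plk1, Ccnb2, Cdc20 and Ube2c had too few counts to enter the test.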
